A study of Mus musculus with 20 samples.

Results

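Gene expression in the XY gonads of F1 hybrids between the mouse strains C57BL/6J and 129S1/SvImJ was compared with the mean of the parents, called the mid-parent here. The comparison set the mean of 10 F1 arrays against the mean of the C57BL/6J and 129S1/SvImJ group means, so that all 20 arrays of the series entered, 10 F1 and 10 parental. The groups were (B6x129S1)F1 and (129S1xB6)F1, the offspring of the reciprocal crosses, and the inbred strains C57BL/6J and 129S1/SvImJ, each with 5 arrays of 1 gonad pair from 1 embryo at embryonic day 11.5 (17 to 21 tail somites). The mesonephroi had been removed, and each Cy5 target was made by amplifying 200 to 450 ng of RNA. Every array carried the same Cy3 reference pool, made from gonads and whole embryos of a cross between a Sox9-ECFP line on C57BL/6J and CD-1. The dyes were never swapped, and the labels used here do not say which strain was the mother in a cross. Of 27670 genes or transcripts on the array, 23849 were bright enough in at least 1 group to be tested. All levels are log2 ratios of gonad over reference pool unless another scale is named.

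A trait is additive where the hybrid lies midway between its parents, and it shows dominance where the hybrid lies nearer to 1 of them. An allele that makes the same amount of RNA in the hybrid as in its own strain gives a hybrid at the arithmetic mean of the parental amounts, which lies above the mean of their logarithms, so each gene was examined on log2 and on unlogged ratios. An XY animal carries a single X and a single Y chromosome, so for genes on these chromosomes a hybrid has 1 parental allele and the mid-parent is only a number. At this stage the mouse gonad holds somatic cells that are about to choose the testis or ovary pathway and primordial germ cells, which express pluripotency genes and genes of the piRNA and meiosis machinery. In bulk RNA, fewer cells of a type and less RNA per cell cannot be told apart.

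The genes on which the results turn were read by single probes, whose first 30 of 60 bases (5′ to 3′, from the deposited array files, no base singled out) are shown to identify what was hybridised. The first 7 lay above both parents in the F1, and the last 3 are the examples for dominance and for the effect of the scale.
Mageb4: aaagatcaggctgagtctaaagtcacacta
Tex19.1: tgacctcactgtcataggggtcatatgctt
Cyct: gtatttaaaacaggccacatcctcatgaag
Sox2: tggcaatcaaatgtccattgtttataagct
Isl2: gttatttattgtgaggcgaatagtgggacg
Zfp296: ggtgtcactaaagcaagtggaaatgggcag
Efcab10: gatggaaaaaatgtggtcaatgttttagtg
Kctd14: accaagaagctaagttctaccaaatccacc
H2-Bl: gctcaaatctttgagctgagggttgattag
Ptprg: tcaagaataagtacagcttagtttggtggt

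The arrays came on 5 slides of 4 arrays. Slides 2, 3 and 4 each held 1 array of every group, slide 1 held strain arrays only and slide 5 held F1 arrays only. Slide 5 was the dimmest, with a mean net Cy5 signal of 116 against 173 to 210 on the other slides. Gene probes that passed the scanner's background flag made up 77.9% to 87.9% of all on F1 arrays and 81.3% to 86.8% on strain arrays. In the C57BL/6J group, array H1 stood apart by blood plasma and liver genes and array H4 by interferon genes. The main counts and some genes are given with and without them. Among other genes named below, Ddx4, Mael, Smc1b, Aurkc, Tdrkh, Mageb16, Egln3, Myo6 and Vsnl1 also lost their log2 calls without H1 and H4. H1 to H4 also share a letter in their names, which may mark a litter. The number of arrays limits the precision, and p-values measure the spread between gonad pairs of different embryos, which the series states came from more than 1 litter per group without saying which array belongs to which litter. The gonad markers Wt1, Gata4, Nr5a1, Lhx9 and Emx2 averaged 2.29 to 3.49 per array and the neural markers Tubb3 and Stmn2 averaged -3.51 to -2.71.

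Most genes lay near the mid-parent. On the log2 scale 71 genes were called higher in the F1 than the mid-parent, 0.298% of those tested, and 2 were called lower, 0.00839%. A call means an adjusted p under 0.05 in limma with Benjamini-Hochberg adjustment over all genes tested. The median difference over all genes was 0.0109, with 53.3% of genes above 0, and 2186 genes had an unadjusted p under 0.05. The 71 differences ran from 0.28 to 2.02 (median 0.78), and 69 of the 71 were above 0 within each of slides 2, 3 and 4. These slides hold 12 of the 20 arrays by which the 71 were called, so this count follows in part from the choice. On unlogged ratios 11 genes were called higher, 0.0461% of those tested, and 0 lower, with 2109 at an unadjusted p under 0.05. All 11 were among the 71. Without C57BL/6J H1 and H4, a setting chosen after seeing the data, 54 genes were called on log2, of which 52 were higher, and 8 on unlogged ratios.

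The count depended on how slides were treated and on which arrays informed it. With slide as a fixed block, slides 1 and 5 do not inform F1 minus mid-parent, since neither holds both F1 and strain arrays. The difference then rests on slides 2, 3 and 4, as in the fit of their 12 arrays. These settings give the same differences with another estimate of the spread, and they are not independent, though they count as separate settings below. With slide as a fixed block 28 genes were called, all higher, of which 22 were among the genes called without it, and on unlogged ratios 0 were called. On the 12 arrays of the slides that held every group, 2 genes were called (Prim2 and Ptprg). With the letter of the array name as a random block 35 were called, all of them also called without it. Each F1 cross on its own, against the same parents, gave 28 genes for (B6x129S1)F1 and 23 for (129S1xB6)F1.

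A few genes lay above both parents, and none below both. A gene was placed outside the parents where the F1 differed by call from C57BL/6J and from 129S1/SvImJ in the same direction. In the F1, 9 genes lay above both (0.0377%) and 0 below both, with 219 above and 77 below at an unadjusted p under 0.05. Of the 9, 7 have a gene symbol: Mageb4, Tex19.1, Cyct, Sox2, Isl2, Zfp296 and Efcab10. The others are 1700013H16Rik, an X-linked clone that was well above background on only 1 of 5 C57BL/6J arrays, and the transcript TC1413911. None of the 9 was called between the strains, and 6 of them were also called on unlogged ratios. Without C57BL/6J H1 and H4 there were 7 such genes, and with slide as a fixed block there were 5 (Cyct, Mageb4 and Zfp296, joined by Dppa3 and Gtsf1l). On the 12 arrays of the slides with every group there were 2, Cyct and Gm9.

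Mageb4 is an X-linked member of the MAGE family, whose expression is known from germ cells. Its level in the F1 was 3.62 at the lowest, 4.41 at the median and 5.47 at the highest array, against 3.27, 2.74, 3.24, 2.28 and 3.26 in C57BL/6J and 2.92, 3.76, 3.23, 3.93 and 3.03 in 129S1/SvImJ. All F1 arrays stood above every C57BL/6J array, and 8 of 10 stood above every strain array. The F1 was 2.40-fold higher than the mid-parent (log2 difference 1.26 ± 0.16, SE, adjusted p = 0.000504), and 1.30 on the log2 scale when ratios were averaged unlogged (adjusted p = 0.0075). Against the mid-parent, (B6x129S1)F1 lay 1.74 higher and (129S1xB6)F1 0.78 higher, and (129S1xB6)F1 was not called on its own (adjusted p = 0.25). The difference between the crosses, 0.96, did not pass the test (adjusted p = 0.95).

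Tex19.1 encodes a protein of germ cells, pluripotent cells and placenta that restrains retrotransposons in the mouse. F1 levels were 4.23, 4.82 and 5.26 (lowest, median, highest), against 3.86, 2.96, 3.17, 2.72 and 3.27 in C57BL/6J and 3.96, 4.03, 4.28, 3.97 and 3.20 in 129S1/SvImJ. A single F1 array fell below the highest 129S1/SvImJ array, and the other 9 lay above all strain arrays. The F1 exceeded the mid-parent by 1.24 ± 0.17 on log2 (2.37-fold, adjusted p = 0.000678) and by 1.19 with unlogged averaging (adjusted p = 0.0086).

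Cyct, the testis form of cytochrome c, measured 2.88, 3.18 and 3.81 in the F1 (lowest, median, highest), against 3.05, 2.11, 2.59, 1.46 and 2.30 in C57BL/6J and 2.07, 1.68, 1.98, 1.95 and 1.17 in 129S1/SvImJ. Only C57BL/6J array H1 reached into the F1 range. The difference from the mid-parent was 1.24 ± 0.17 (2.36-fold, adjusted p = 0.00112), with 1.17 on unlogged averaging (adjusted p = 0.0086). Cyct was above both parents also on the slides with every group, where its difference from the mid-parent was 1.40 (adjusted p = 0.072).

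Sox2, a transcription factor of pluripotent cells and of primordial germ cells, was scarce in all gonads relative to the pool, which contains whole embryos. F1 arrays read -2.72, -2.64 and -2.05 (lowest, median, highest), against -3.71, -3.36, -3.32, -3.86 and -3.33 in C57BL/6J and -4.53, -2.89, -2.82, -3.84 and -3.64 in 129S1/SvImJ. All 10 F1 arrays were above all 10 strain arrays. The F1 was 1.00 ± 0.17 above the mid-parent (1.99-fold, adjusted p = 0.00977), and 0.94 with unlogged averaging (adjusted p = 0.018). The call was lost with normexp background correction and loess (0.58, adjusted p = 0.32), with slide as a fixed block (0.81, adjusted p = 0.19) and without C57BL/6J H1 and H4 (0.91, adjusted p = 0.058).

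Isl2, a LIM homeodomain factor best known from motor neurons, also separated the groups completely. Its F1 levels were -1.03, -0.75 and -0.34 (lowest, median, highest), against -1.36, -2.04, -1.48, -2.00 and -1.17 in C57BL/6J and -1.69, -1.09, -1.19, -1.82 and -1.81 in 129S1/SvImJ. Every F1 array was above every strain array, by a narrow margin for the lowest. The difference from the mid-parent was 0.90 ± 0.13 (1.87-fold, adjusted p = 0.00214), 0.88 unlogged (adjusted p = 0.0075), and 0.76 with slide as a fixed block, which was not called (adjusted p = 0.086).

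Zfp296, a zinc finger protein of pluripotent and germ cells, read 1.52, 2.13 and 2.27 in the F1 (lowest, median, highest), against 1.81, 1.08, 1.61, 0.94 and 1.40 in C57BL/6J and 1.19, 1.39, 1.11, 1.55 and 0.79 in 129S1/SvImJ. In 8 of 10 F1 arrays it exceeded all strain arrays. It was 0.75 ± 0.13 higher than the mid-parent (1.68-fold, adjusted p = 0.0083), and its other probe gave 0.66. Efcab10, which encodes a protein with EF hands, measured 1.06, 1.88 and 2.30 in the F1 (lowest, median, highest), against 1.06, 0.99, 1.08, 0.89 and 1.42 in C57BL/6J and 1.22, 1.37, 1.24, 0.93 and 0.66 in 129S1/SvImJ. There 9 F1 arrays lay above all strain arrays and 1 lay among them. The difference was 0.74 ± 0.14 (1.67-fold, adjusted p = 0.0272), it was not called on unlogged ratios (adjusted p = 0.096), and it was 0.48 with slide as a fixed block (adjusted p = 0.37). Efcab10 lost its log2 call in 18 of 35 settings, among them 11 of the 20 that left out 1 array and the fit without C57BL/6J H1 and H4 (0.70, adjusted p = 0.12).

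**Figure D1:**
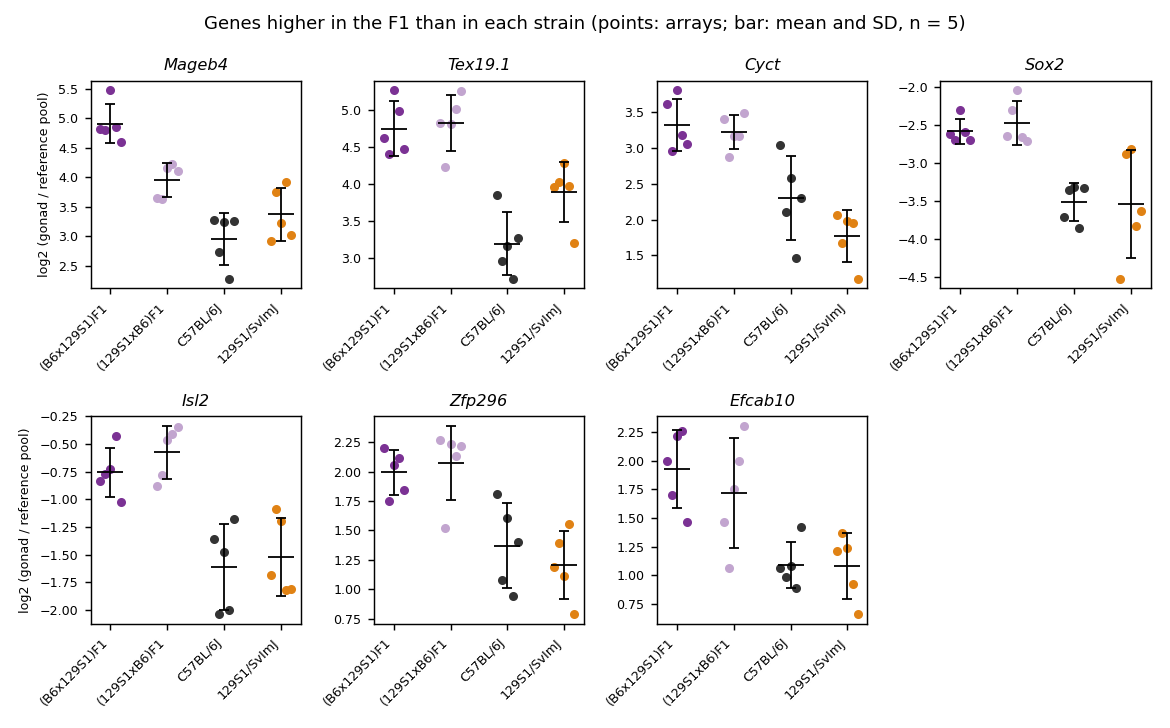
Log2 ratio of gonad over reference pool (vertical axis) on each array, by group (horizontal axis), for the 7 named genes above both parents in the F1; points are arrays, bars mean and SD of 5 arrays. For Sox2 and Isl2 all 10 F1 points lie above all 10 strain points, while 8 or 9 of 10 do so for the other genes.

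Most germ cell genes read higher in the F1 than the mid-parent, and 5 passed the test. Of 32 genes on a list of germ cell and pluripotency genes, all of them tested, 28 had a difference above 0, 5 were called higher and none lower, with a median difference of 0.45 beside 0.0109 for all genes. At an unadjusted p under 0.05, 22 were higher and 0 lower, beside 2186 of 23849 in either direction among all genes tested, the background for such counts in the other lists too. The F1 mean lay above both strain means for 25 of the 32, 78.1% beside 33.2% of all genes tested. Per array the mean of the list ran from 2.02 to 2.42 in (B6x129S1)F1 and from 2.09 to 2.55 in (129S1xB6)F1, against 1.40 to 1.94 in C57BL/6J and 1.69 to 2.14 in 129S1/SvImJ. The F1 and C57BL/6J arrays did not overlap, and the F1 and 129S1/SvImJ arrays overlapped at the edge. On each of slides 2, 3 and 4 both F1 arrays were above both strain arrays, at 2.09 to 2.25 against 1.57 to 2.00 on slide 2, 2.02 to 2.09 against 1.70 to 1.95 on slide 3, and 2.16 to 2.26 against 1.40 to 1.69 on slide 4. The F1 arrays of the dim slide 5 were the highest, at 2.39 to 2.55, and the part of the slide in the result was not tested beyond these values. On the slides with every group the list's median was 0.43 and 0 members were called, with slide as a fixed block 2 were called, and without C57BL/6J H1 and H4 the median was 0.44 with 2 called.

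The 5 called members were Zfp42 and Dppa5a, markers of pluripotent cells, Ddx4, the mouse homologue of the Vasa RNA helicase of germ cells, Mael, a component of the piRNA pathway, and Sox2. Ddx4 read 3.63, 4.39 and 5.17 in the F1 (lowest, median, highest), against 3.20, 3.17, 3.12, 2.75 and 4.34 in C57BL/6J and 2.35, 3.58, 3.77, 3.23 and 2.56 in 129S1/SvImJ. The groups overlapped, since C57BL/6J K2 stood as high as a median F1 array and the lowest F1 array lay among those of 129S1/SvImJ. The difference from the mid-parent was 1.20 ± 0.24 (2.30-fold, adjusted p = 0.0296), and it was not called on unlogged ratios (adjusted p = 0.13). Mael was 0.89 ± 0.18 higher (adjusted p = 0.0314) and Dppa5a 0.87 ± 0.17 higher (adjusted p = 0.0327); both were named after their values were seen. Ddx4 and Mael lost their calls in many settings, among them slide as a fixed block (0.88, adjusted p = 0.28, and 0.59, adjusted p = 0.12). Dppa5a lost its call in 15 of 35 settings, among them letter as a random block and 10 of the 20 that left out 1 array. Zfp42 lost its call in 4 of 35, namely letter as a random block, the slides with every group and each cross alone.

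The core germ cell factors were not called, although their differences had the same sign, and their values were looked up after the list had been computed. Pou5f1, the pluripotency factor Oct4, lay 0.41 above the mid-parent (adjusted p = 0.60), Nanog 0.59 above (adjusted p = 0.29) and Dppa3 0.45 above (adjusted p = 0.31). The F1 mean of Pou5f1, 2.91, lay above the C57BL/6J mean of 1.97 and below the 129S1/SvImJ mean of 3.03. Dazl, an RNA-binding protein needed by germ cells, was 0.44 higher (adjusted p = 0.55), with an F1 mean of 1.88 that was near the 129S1/SvImJ mean of 1.92 and above the C57BL/6J mean of 0.95. Nanos3, which keeps migrating germ cells alive, lay 0.21 above (adjusted p = 0.48). The 4 members below 0 were Ifitm1, Tdrd9, Taf7l and Ifitm3, none of them called.

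Further germ line genes stood among the 71 outside the list and were picked here after their values were seen. Tdrd12, a tudor protein of the piRNA pathway, was 0.94 ± 0.16 above the mid-parent (adjusted p = 0.0106). Cpeb1, which controls polyadenylation of stored RNAs in oocytes, was 1.10 ± 0.18 above (adjusted p = 0.00637). Smc1b, a cohesin subunit of meiosis, was 0.96 ± 0.19 above (adjusted p = 0.0286), Aurkc, an Aurora kinase of meiosis, 0.56 ± 0.11 (adjusted p = 0.0286) and Tdrkh, another tudor protein of the piRNA pathway, 0.53 ± 0.11 (adjusted p = 0.0492). Of these, Tdrd12 was still called with slide as a fixed block, and Cpeb1, Smc1b, Aurkc and Tdrkh were not. Of 35 settings, Tdrkh lost its call in 27, Aurkc in 18, Smc1b in 17, Cpeb1 in 3 and Tdrd12 in 2. Psma8, a proteasome subunit of the testis, was the only 1 of 39 proteasome genes called (0.38 ± 0.08, adjusted p = 0.0445), and it lost its call in 22 of 35 settings, among them slide as a fixed block (0.29, adjusted p = 0.19) and the fit without C57BL/6J H1 and H4 (0.36, adjusted p = 0.14).

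Rpl39l, a copy of the ribosomal protein gene Rpl39 known from the testis, was 1.37 ± 0.21 above the mid-parent (2.59-fold, adjusted p = 0.00331) and was called on unlogged ratios too (adjusted p = 0.042). Its levels in the F1 were 4.07, 4.83 and 5.55 (lowest, median, highest), against 3.54, 2.97, 3.19, 2.37 and 3.09 in C57BL/6J and 4.15, 4.15, 4.29, 4.24 and 2.79 in 129S1/SvImJ. F1 and C57BL/6J arrays did not overlap, while 4 of 5 129S1/SvImJ arrays lay within the F1 range. Its other probe gave 1.09. Hybridisation to related ribosomal protein transcripts was not tested. None of the 76 ribosomal protein genes on the list was called in limma (8 higher and 0 lower at an unadjusted p under 0.05), and their median difference was 0.0056.

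**Figure D2:**
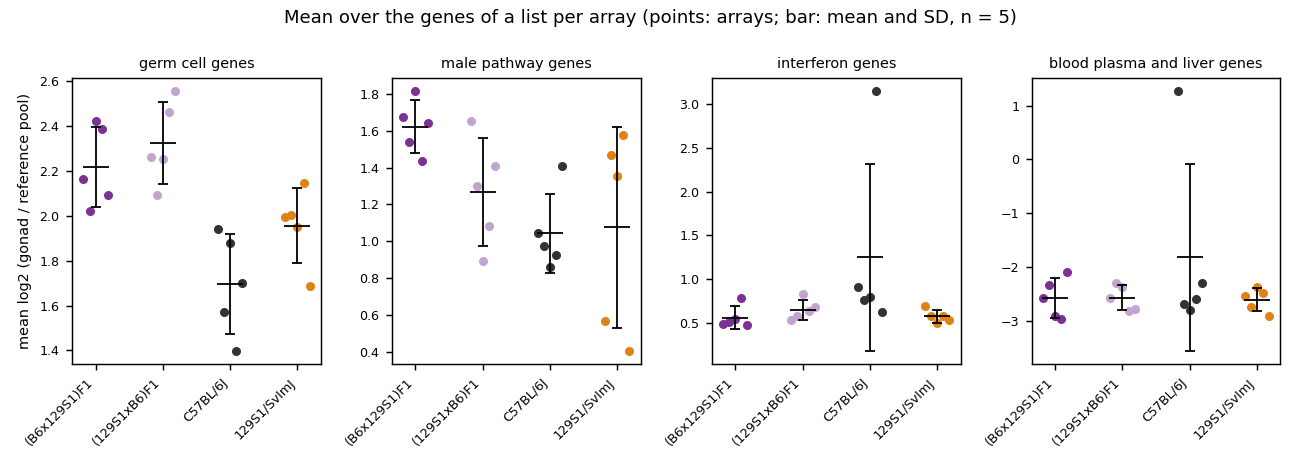
Mean log2 ratio of gonad over reference pool over the genes of 4 lists (vertical axes), by group (horizontal axes); points are arrays, bars mean and SD of 5 arrays. All F1 points of the germ cell list lie above all C57BL/6J points, and single C57BL/6J points at 3.14 in the interferon panel and 1.26 in the blood plasma and liver panel stand far from the rest.

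The somatic sex pathways gave no calls in limma. Among 23 genes of the male pathway 17 were above 0 with a median of 0.37, but within slides 2, 3 and 4 the medians were 0.10, 0.0053 and 0.84, with the largest on slide 4. By cross the median was 0.51 for (B6x129S1)F1 and 0.13 for (129S1xB6)F1. At an unadjusted p under 0.05, 9 of the 23 were higher and 1 lower. Sox13, a SoxD factor on that list, was 0.56 ± 0.16 higher (adjusted p = 0.243). Of 12 FGF targets 11 were above 0, with a median of 0.25 and none called (4 higher at an unadjusted p under 0.05); Il17rd, an inhibitor of FGF signalling, was 0.41 ± 0.10 higher (adjusted p = 0.131). The 14 female pathway genes had a median of -0.13 and 2 lower at an unadjusted p under 0.05; Fst, which binds activin, was 0.69 lower on log2 (difference -0.69 ± 0.20, adjusted p = 0.214), and its F1 mean lay 0.12 above 129S1/SvImJ and differed from C57BL/6J by -1.50 (adjusted p = 0.0011).

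Interferon genes and genes of blood plasma and liver had medians below the mid-parent, nearer to 0 without the C57BL/6J arrays that stood apart. The 27 interferon genes had a median of -0.37, with 0 called (1 higher and 4 lower at an unadjusted p under 0.05), -0.08 without C57BL/6J H1 and H4, where 1 was called, and -0.53 on the slides with every group. Those slides hold H4 but not H1. Within slides 2, 3 and 4 the medians were -0.0057, -0.11 and -1.28, with H4 on slide 4. Ifit3, an interferon-induced gene, had a mean of 1.32 in C57BL/6J that was raised by array H4 at 3.44. The 13 genes of blood plasma and liver had a median of -0.32, -0.05 without H1 and H4, and 0.12 on the slides with every group, where H1 was absent and the direction turned. Array H1 was at 1.26 for the mean of that list, the other C57BL/6J arrays at -2.30 or below. Of 17 macrophage genes 2 were above 0 and 0 were called or reached an unadjusted p under 0.05, with a median of -0.13. No gene was called among the 36 Hox genes, the 20 cholesterol synthesis genes, the 29 extracellular matrix genes or the 909 olfactory and vomeronasal receptors, although 716 of these receptors, which are mostly dim, were above 0 by a small amount (median 0.0523). At an unadjusted p under 0.05 the Hox genes had 0 higher and 2 lower, cholesterol synthesis 0 and 2, the matrix genes 1 and 2, and the receptors 51 and 4.

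Only Lilrb4a and Vsnl1 were called lower. Lilrb4a, an inhibitory receptor of myeloid cells, read -0.83, -0.38 and 0.10 in the F1 (lowest, median, highest), against 0.60, 0.07, 0.04, 0.55 and 0.28 in C57BL/6J and 0.10, -0.06, -0.10, 0.11 and 0.37 in 129S1/SvImJ. The ranges overlapped at the highest F1 array. The difference was -0.57 ± 0.11 (0.674-fold, adjusted p = 0.0196), and the probe was well above background on 1 and 2 of 5 arrays in (B6x129S1)F1 and (129S1xB6)F1, against 4 of 5 in each strain. Without C57BL/6J H1 and H4 it was not called (-0.48, adjusted p = 0.09). Vsnl1, a calcium sensor of neurons, differed by -0.26 ± 0.05 (adjusted p = 0.0454) and lost its call in 29 of 35 settings. Its other probe gave 0.04.

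Genes that differed between the strains were used to describe dominance. At least 2-fold differences were called for 252 genes higher in C57BL/6J (1.06%) and 201 genes higher in 129S1/SvImJ (0.843%). The position of the F1 was scored as 1 at the level of C57BL/6J, -1 at the level of 129S1/SvImJ and 0 at the mid-parent. The strain difference that chose these genes comes from the same parental arrays as the mid-parent, so positions are descriptions without a test. Whether a strain variant under a probe weakened its hybridisation was not tested.

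On log2 the F1 leaned toward the higher strain in both directions, and on unlogged ratios it did not. For genes higher in C57BL/6J the median position was 0.10 on log2 and -0.17 on unlogged ratios. For genes higher in 129S1/SvImJ it was -0.19 on log2 and 0.11 on unlogged ratios. Toward the higher strain lay 60.3% of the first set on log2 and 33.7% on unlogged ratios, and 64.7% and 37.3% of the second. By array, 8 of 10 F1 arrays had a median toward C57BL/6J for the first set and 10 of 10 toward 129S1/SvImJ for the second on log2, and 1 of 10 on unlogged ratios in either set. The range over F1 arrays on log2 was -0.13 to 0.39 for the first set and -0.34 to -0.04 for the second.

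The lean on log2 was larger where the strains differed more. For genes higher in C57BL/6J the median position on log2 was 0.04 at 2 to 4-fold (204 genes), 0.26 at 4 to 8-fold (29 genes) and 0.51 above 8-fold (19 genes). The corresponding unlogged positions were -0.18, -0.17 and 0.02. For genes higher in 129S1/SvImJ the log2 positions were -0.10 (157 genes), -0.35 (37 genes) and -0.49 (7 genes), and the unlogged positions 0.14, 0.06 and 0.02. The sets above 8-fold hold fewer than 20 genes. With all genes called between the strains, whatever their fold, the log2 position for those higher in C57BL/6J turned to -0.01. For the set higher in 129S1/SvImJ the unlogged position turned to -0.01 with slide as a fixed block and on the slides with every group, while the log2 position stayed on the side of 129S1/SvImJ (-0.27 and -0.29).

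**Figure D3:**
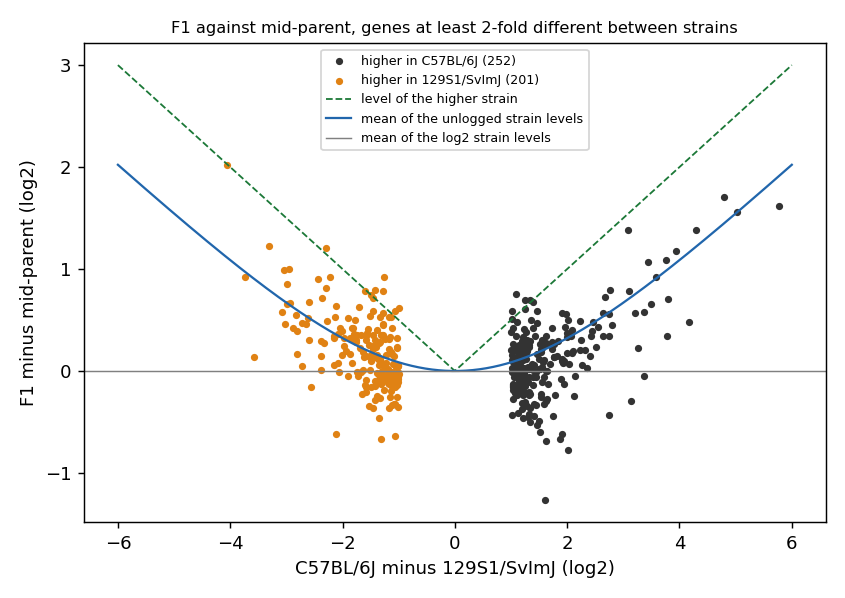
F1 minus mid-parent (log2, vertical axis) against C57BL/6J minus 129S1/SvImJ (log2, horizontal axis) for the 252 and 201 genes at least 2-fold different between the strains; each point is a gene, dashed lines mark the level of the higher strain, the curve the mean of the unlogged strain levels and the level line the mean of the log2 levels. Over 8-fold the points gather about the curve, where the median unlogged position was 0.02 in both directions.

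**Figure D4:**
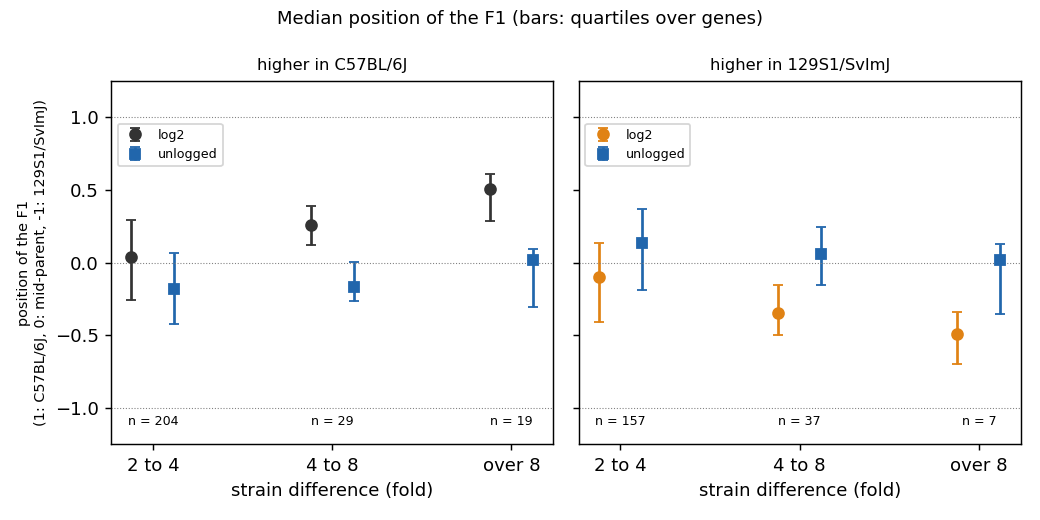
Median position of the F1 (vertical axis, 1 at C57BL/6J, -1 at 129S1/SvImJ) by fold difference between the strains (horizontal axis) on log2 and unlogged ratios; bars are the quartiles over genes, n the number of genes. The log2 medians move to 0.51 and -0.49 with the fold, while the unlogged medians stay between -0.18 and 0.14.

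The called genes were split by whether the strains differed. Of the 71 genes called higher, 39 were also called between the strains, 21 of them higher in C57BL/6J and 18 higher in 129S1/SvImJ. Among the 25 of these with at least a 4-fold strain difference, the median difference from the mid-parent was 0.92 on log2 and 0.10 with unlogged averaging, and for 1 of the 25 the unlogged value was more than 0.5 of the log2 value. Among the 32 called genes without a called strain difference, the medians were 0.88 on log2 and 0.83 with unlogged averaging, and the F1 mean was above both strain means for all 32. Where the strains do not differ the mid-parents of both scales nearly coincide, so the likeness of these medians follows from the split. A gene called above the mid-parent of strains that differ little lies above both, so the count of 32 also follows largely from the split. The 11 genes called on unlogged ratios were Mageb4, Isl2, Tex19.1, Cyct, Sox2, Zfp296 and Rpl39l, joined by 4 genes named after their values were seen. These were Rps6kl1, a kinase-like gene (0.99 ± 0.15 on log2, adjusted p = 0.00268), and Blnk, an adaptor of B cell signalling (0.76 ± 0.12, adjusted p = 0.00315). The others were Lefty2, an inhibitor of Nodal (0.70 ± 0.11, adjusted p = 0.00637), and Ap3b2, a subunit of a neuronal vesicle adaptor (0.58 ± 0.10, adjusted p = 0.00687). The other probe of Ap3b2 gave -0.05. All 4 lost their log2 calls with slide as a fixed block, on the slides with every group and for (129S1xB6)F1 alone. Ap3b2 also lost its call with the mean of all probes and for (B6x129S1)F1 alone.

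Ptprg, a receptor tyrosine phosphatase, was the clearest example of a gene between its parents whose call rests on the scale. F1 levels were 0.33, 0.52 and 0.71 (lowest, median, highest), against 1.32, 1.61, 1.57, 1.26 and 1.71 in C57BL/6J and -3.60, -3.67, -3.14, -3.89 and -3.35 in 129S1/SvImJ. The groups were fully separate, and the F1 lay 0.95 below C57BL/6J and 4.07 above 129S1/SvImJ. Against the mid-parent it was 1.56 ± 0.09 higher on log2 (adjusted p = 1.27e-08), whereas the mean unlogged ratio of the F1, 1.46, equalled that of the mid-parent, 1.46 (mean of 2.84 in C57BL/6J and 0.088 in 129S1/SvImJ). Another probe of Ptprg gave a strain difference of 0.81 and an F1 minus mid-parent of -0.14, so the pattern belongs to 1 probe.

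Trim12a, of the tripartite motif family, had the largest strain difference among the genes named. It measured 1.42, 1.64 and 2.23 in the F1 (lowest, median, highest), against 2.88, 2.41, 2.92, 3.86 and 2.79 in C57BL/6J and -2.70, -3.15, -2.28, -2.74 and -3.14 in 129S1/SvImJ, where 3 of 5 arrays were well above background. The F1 was below all C57BL/6J arrays and above all 129S1/SvImJ arrays. On log2 it was 1.62 ± 0.15 above the mid-parent (adjusted p = 1.45e-05), and with unlogged averaging -0.36 (adjusted p = 0.70), so the sign turned. The log2 call was lost with normexp and loess (0.66, adjusted p = 0.2). The other probe of Trim12a gave 0.40 with a strain difference of 3.02, and was not called where it stood for the gene (adjusted p = 0.46). Prim2, a subunit of DNA primase, was 1.18 ± 0.08 above on log2 (adjusted p = 1.06e-07) and 0.12 with unlogged averaging. Its other probe gave -0.41 for F1 minus mid-parent.

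For a smaller set the F1 was called above the mid-parent and was not called apart from the higher strain. The missing call does not show that it was at that strain's level. A gene was placed with the higher strain where the F1 was called nearer to the higher strain than the mid-parent and its difference from that strain was not called, which held for 10 of 252 genes higher in C57BL/6J and 6 of 201 higher in 129S1/SvImJ. No gene was placed with the lower strain by the same rule. Between the strains, called apart from both and not from the mid-parent, lay 60 and 50 genes, and 10 and 6 were called above the mid-parent yet apart from the higher strain. For the remaining 172 and 139 genes the calls did not place the F1.

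Kctd14, which encodes a protein with the tetramerisation domain of potassium channels, was such a gene. It read 5.22, 5.77 and 6.05 in the F1 (lowest, median, highest), against 6.05, 6.10, 6.04, 5.93 and 5.32 in C57BL/6J and 1.86, 3.42, 2.97, 2.73 and 3.05 in 129S1/SvImJ. F1 and C57BL/6J arrays overlapped and both stood well above 129S1/SvImJ. The F1 exceeded the mid-parent by 1.38 ± 0.16 on log2 (adjusted p = 0.000352) and by 0.67 with unlogged averaging (adjusted p = 0.09), and differed from C57BL/6J by -0.16 (adjusted p = 0.83). Its position was 0.89 on log2 and 0.75 on unlogged ratios.

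H2-Bl, a class I gene of the major histocompatibility complex, was placed with 129S1/SvImJ. F1 levels were 1.49, 2.75 and 3.25 (lowest, median, highest), against -1.39, -1.32, -0.75, -2.36 and -1.05 in C57BL/6J, where 3 of 5 arrays were well above background, and 2.83, 2.94, 2.83, 2.50 and 2.29 in 129S1/SvImJ. F1 and 129S1/SvImJ arrays overlapped, and every F1 array was above C57BL/6J. The F1 was 2.02 ± 0.22 above the mid-parent (4.05-fold, adjusted p = 7.83e-05), the largest called difference, 0.96 above it with unlogged averaging (adjusted p = 0.12), and -0.01 from 129S1/SvImJ. Its 2 other probes gave 0.36 and 2.10 for F1 minus mid-parent and strain differences from -3.68 to -0.57. The call was lost where the probe with 0.36 stood for the gene (adjusted p = 0.2). Hybridisation to related class I transcripts was not tested.

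Zfp42, known as Rex1 and used as a marker of pluripotent cells, was also placed with 129S1/SvImJ. It measured 3.31, 4.40 and 4.94 in the F1 (lowest, median, highest), against 2.51, 1.55, 2.17, 1.23 and 2.00 in C57BL/6J and 4.33, 4.28, 3.63, 4.91 and 3.83 in 129S1/SvImJ. F1 arrays covered the range of 129S1/SvImJ and lay above all C57BL/6J arrays. The difference from the mid-parent was 1.21 ± 0.21 (adjusted p = 0.0132) and from 129S1/SvImJ 0.06 (adjusted p = 0.95), with positions of -1.05 on log2 and -1.11 on unlogged ratios. Another probe of Zfp42 gave 2.29 for F1 minus mid-parent and a strain difference of -4.24. Dennd1c, an activator of Rab GTPases, had positions of 1.04 and 1.06 (0.70 ± 0.12 above the mid-parent, adjusted p = 0.00687). Dennd1c was not called with slide as a fixed block (0.73, adjusted p = 0.12) or with normexp and loess (0.50, adjusted p = 0.085).

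For other genes placed with the higher strain the unlogged position was nearer to the middle. Rbm45, an RNA-binding protein, was 1.00 ± 0.15 above the mid-parent (adjusted p = 0.00251) with positions of -0.68 on log2 and -0.34 on unlogged ratios. Gcnt1, an enzyme of O-glycan branching, was 1.07 ± 0.20 above (adjusted p = 0.0218) with 0.62 and 0.22. Myo6, an unconventional myosin, was 0.64 ± 0.13 above (adjusted p = 0.0421) with -0.60 and -0.34. Rprd1b, which binds the tail of RNA polymerase II, was 0.56 ± 0.11 above (adjusted p = 0.0256) with 0.57 and 0.28. Calls were lost in 11 of 35 settings for Gcnt1, 15 for Rprd1b, 24 for Myo6 and 3 for Rbm45. With slide as a fixed block none of these was called, at 0.64 for Gcnt1 (adjusted p = 0.46), 0.46 for Rprd1b (adjusted p = 0.37), 0.37 for Myo6 (adjusted p = 0.5) and 0.94 for Rbm45 (adjusted p = 0.12). The other probes of Gcnt1 and Rprd1b gave F1 minus mid-parent between -0.11 and -0.07 and no strain difference toward C57BL/6J, while those of Myo6 gave -0.01 and 0.22 with strain differences of the same sign. Cox7c, the only 1 of 79 genes of oxidative phosphorylation called, was 0.85 ± 0.13 above (adjusted p = 0.00268) and called apart from both strains, with -0.57 and -0.15, and was not called with slide as a fixed block (0.79, adjusted p = 0.13). Its F1 arrays read 0.28 to 1.05, against -1.98 to -1.29 in C57BL/6J and 0.82 to 1.79 in 129S1/SvImJ, so that they overlapped 129S1/SvImJ only.

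**Figure D5:**
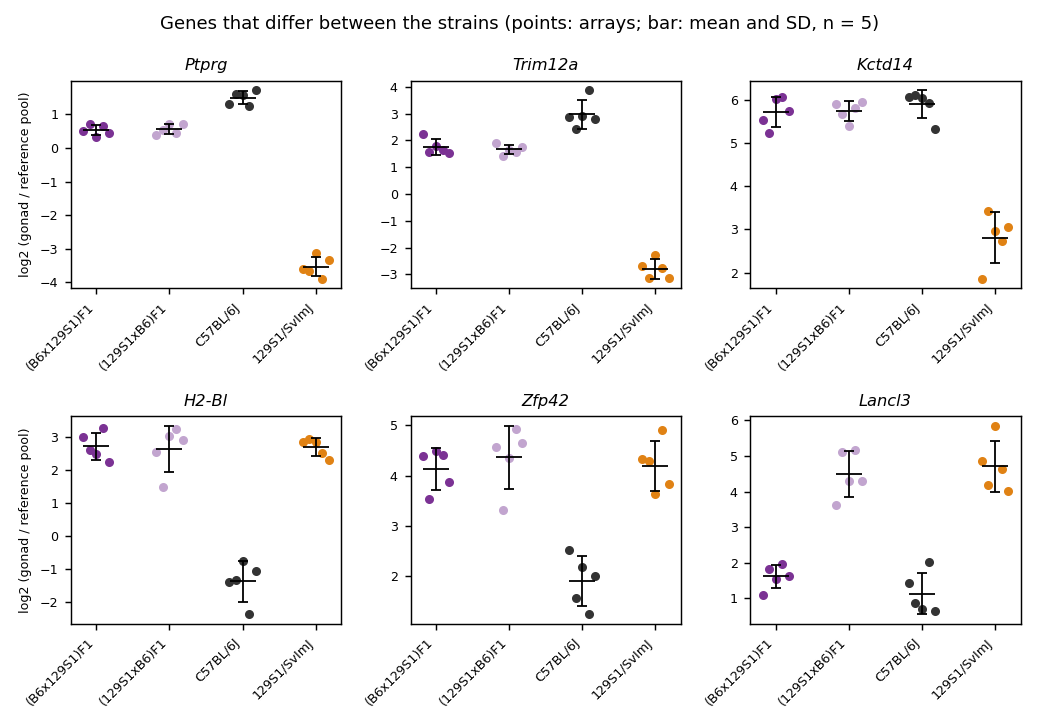
Log2 ratio of gonad over reference pool (vertical axis) on each array by group (horizontal axis) for 6 genes that differed between the strains; points are arrays, bars mean and SD of 5 arrays. Ptprg and Trim12a lie between the strains, Kctd14 overlaps C57BL/6J, H2-Bl and Zfp42 overlap 129S1/SvImJ, and the crosses part for Lancl3.

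Among genes between the strains and not called against the mid-parent, those with the largest strain differences are given with both positions. Slc7a2, a transporter of cationic amino acids that was well above background on 2 of 5 129S1/SvImJ arrays, had positions of 0.38 on log2 and -0.16 on unlogged ratios, and Fkbp9, a prolyl isomerase of the endoplasmic reticulum, 0.32 and -0.10. Kcnc1, a voltage-gated potassium channel well above background on 3 of 5 129S1/SvImJ arrays, had 0.25 and -0.21. Gng13, a G protein subunit, had -0.03 and -0.55, both on the side of 129S1/SvImJ. Higher in 129S1/SvImJ, Paip1, which binds the poly(A)-binding protein, had -0.35 and 0.10, Tmem87a, a Golgi membrane protein, -0.40 and 0.06, and Ppp4r4, a regulatory subunit of protein phosphatase 4, -0.04 and 0.48. The F1 minus mid-parent of Gng13, -0.05, and of Ppp4r4, 0.05, changed sign between settings.

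Most strain genes rest on 1 probe, and other probes often did not share the difference. Of the genes higher in C57BL/6J, 174 had a single probe, 17 had only other probes with at least a 2-fold difference of the same sign, 58 had none and 3 had some. For 129S1/SvImJ the numbers were 145, 14, 31 and 11. Where every probe shared the strain difference, the median position on log2 was 0.12 for C57BL/6J and -0.32 for 129S1/SvImJ, with -0.14 and 0.04 on unlogged ratios. Where no other probe did, it was 0.19 and -0.23 on log2, with -0.08 and 0.05 on unlogged ratios. Among genes with at least a 4-fold strain difference that every probe shared, the 5 higher in 129S1/SvImJ kept the sign between scales (-0.60 on log2 and -0.32 unlogged), and the 5 higher in C57BL/6J did not (0.34 and -0.23).

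The crosses gave similar positions over these sets of genes. For genes higher in C57BL/6J the mean position over arrays on log2 was 0.08 ± 0.16 in (B6x129S1)F1 and 0.18 ± 0.14 in (129S1xB6)F1 (SD, n = 5 each), and for genes higher in 129S1/SvImJ -0.19 ± 0.09 and -0.23 ± 0.08. These means differed by less than the spread between arrays. Between the crosses 2 genes were called, beside 878 whose unadjusted p was under 0.05. One was the transcript BC022654 (0.95, adjusted p = 0.00088), and the other was Lancl3.

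Lancl3, an X-linked relative of the LanC family, took a parental level in each cross. In (B6x129S1)F1 it read 1.10 to 1.97, in (129S1xB6)F1 3.61 to 5.16, against 0.64 to 2.01 in C57BL/6J and 4.02 to 5.85 in 129S1/SvImJ. The (B6x129S1)F1 arrays lay within the range of C57BL/6J, and the (129S1xB6)F1 arrays overlapped 129S1/SvImJ and no array of the other cross. The cross difference was -2.88 ((B6x129S1)F1 minus (129S1xB6)F1, adjusted p = 0.00088). Its place between the strains in the pooled F1 (0.13 ± 0.24 from the mid-parent, adjusted p = 0.876) is therefore an average of both parental levels. Set against the mid-parent alone, (129S1xB6)F1 was 1.57 higher (adjusted p = 0.045) and (B6x129S1)F1 1.30 lower on log2 (difference -1.30, adjusted p = 0.11).

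Calls were also counted on the sex chromosomes. Of 630 X-linked genes tested 4 were called higher (0.635%, beside 0.298% of all genes), namely Mageb4, Mageb16, 1700013H16Rik and 8030474K03Rik. Mageb16, another MAGE gene named after its value was seen, was 0.99 ± 0.19 above the mid-parent (adjusted p = 0.0218). Mageb16 lost its call in 11 of 34 settings, among them slide as a fixed block, letter as a random block and the fit without C57BL/6J H1 and H4. Of 16 Y-linked genes 1 was called (6.25%), Uba1y, a Y-linked ubiquitin-activating enzyme known from the testis. It read 3.99, 4.71 and 6.22 in the F1 (lowest, median, highest), against 3.40, 2.84, 2.80, 2.49 and 3.07 in C57BL/6J and 3.85, 4.64, 3.97, 4.38 and 3.38 in 129S1/SvImJ. The F1 lay above all C57BL/6J arrays and overlapped 129S1/SvImJ (1.29 ± 0.24, adjusted p = 0.0217). Uba1y was not called with slide as a fixed block (0.94, adjusted p = 0.22), with letter as a random block (1.32, adjusted p = 0.058) or without C57BL/6J H1 and H4 (1.30, adjusted p = 0.058). Without X-linked and Y-linked genes, a setting chosen after seeing the data, 67 genes were called on log2, 65 of them higher, 9 on unlogged ratios and 7 above both parents.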

How the data were processed

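Per the labels, 20 XY gonad pairs were hybridised on 2-colour Agilent arrays, with gonad RNA in Cy5 and the reference pool in Cy3. The deposited intensity columns came from Agilent's Feature Extraction software (version 9.1.3.1), which, according to the file headers, subtracted background and normalised the dyes to give the processed signals. The authors also deposited log2 ratios, whose normalisation is not given in the sources used here and which served as an alternative only.

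The log2 of the processed Cy5 over the processed Cy3 intensity was used. Of 45018 spots, 43379 were gene spots of 41174 probes. Outlier spots were left out and spots of a probe averaged. RefSeq gene names for GRCm38.p6 were matched by accession (22951 probes), symbol (6659) or synonym (3109), 8455 probes kept the name in the file, and the brightest probe on average stood for a gene. Tested genes were those whose probe passed the scanner's flag for Cy5 signal above background on 4 or 5 arrays of any group. No genome of the probes' build was used, so no coordinates are given.

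All 20 arrays in 4 groups were fitted with limma 3.58.1 (R 4.3.3, data.table in version 1.17.8), with two-sided p-values adjusted by the Benjamini-Hochberg method within each comparison. Unlogged ratios were divided by the mean of the gene's group means before the fit, and their size is given as log2 of the F1 mean ratio over the mean of the parents' mean ratios. The median standard error was 0.105 for F1 minus mid-parent and 0.148 for the strain difference. Contrasts of the F1 with each strain share the F1 arrays. Steps were tested on simulated data.

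Among genes whose symbol is no clone name, predicted-gene number or bare accession, the genes named were the 10 largest called differences per direction, the genes outside both parents, the largest strain differences per class of dominance, the largest differences called on 1 scale only and up to 3 genes of each of 36 lists by p; others are said to be named after their values were seen. The members, lists and rule were chosen with earlier results of these data known. Alternatives covered background correction, scaling, filters, probe choice, slide and letter as blocks, array weights, single crosses and leaving out each array.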

Additional observations from a re-analysis of the deposited data

Results flagged for a closer look

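In 22 of 292 groups of 5 arrays examined, 1 array stood apart from the others by Dixon's criterion at 95%, which chance alone meets in about 1 group in 20. The values are log2 ratios of gonad over reference pool, each followed by that of the nearest array of its group.

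Among the genes above both parents, Mageb4 stood at 5.47 in (B6x129S1)F1 C4 (nearest 4.85), Sox2 at -2.31 in the same array (nearest -2.60) and Zfp296 at 1.52 in (129S1xB6)F1 L2 (nearest 2.13). Also in C4, Fgfr2, a receptor for FGF, was at -0.88 (nearest -0.52). Other F1 arrays were E1 at 0.03 for Ap3b2 (nearest -0.21), F2 at -0.14 for Lyz1, a lysozyme of macrophages (nearest -0.92), and C2 at 0.06 for Tyrobp, a myeloid adaptor (nearest -1.07), all in (B6x129S1)F1.

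In C57BL/6J, array K2 stood at 5.32 for Kctd14 (nearest 5.93), 4.34 for Ddx4 (nearest 3.20), 0.58 for Dusp4, a phosphatase induced by FGF (nearest -0.48), and 0.17 for Prim2 (nearest -0.13). Array H1 stood at 2.03 for Fgg, a fibrinogen chain (nearest -2.53), 1.04 for the apolipoprotein gene Apoa2 (nearest -3.46) and -0.76 for Ap3b2 (nearest -1.08). Array H4 stood at 3.44 for Ifit3 (nearest 1.14). In 129S1/SvImJ, array G3 stood at 2.79 for Rpl39l (nearest 4.15), 4.32 for Dppa5a (nearest 5.39) and 1.87 for Bmp2, a growth factor of the ovary pathway (nearest 0.32).

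For means over lists, H4 stood at 3.14 for interferon genes (nearest 0.92), H1 at 1.26 for blood plasma and liver genes (nearest -2.30), (B6x129S1)F1 E1 at 0.79 for interferon genes (nearest 0.55) and (129S1xB6)F1 M3 at 1.39 for female pathway genes (nearest 1.16).

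Lancl3 differed between the reciprocal crosses by -2.88 ((B6x129S1)F1 minus (129S1xB6)F1) in the limma fit.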

How the results depend on the processing

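The values below are counts of genes called on log2, on unlogged ratios and above both parents, beside 73, 11 and 9. With slide as a fixed block they were 28, 0 and 5, on the slides with every group 2, 0 and 2, with the letter as a random block 35, 4 and 3, for (B6x129S1)F1 alone 28, 2 and 3 and for (129S1xB6)F1 alone 23, 0 and 3. The unlogged count was 23 with normexp and loess, 7 without the filter on dim probes, 7 with slide as a random block and 6 with array weights. Leaving out each array in turn gave 42 (without C4) to 106 (without K2) on log2, 5 (without C4) to 27 (without L2) on unlogged ratios and 4 (without H2) to 18 (without K2) above both parents. On log2 the count was also 48 without M6 and 46 without H2; above both parents there were 14 without L2, and 5 without A3 or D4. The cause of these changes was not tested, but the slides with every group hold 12 arrays and each cross 5. With slide as a fixed block, F1 minus mid-parent also rests on the slides with every group.

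The position of the F1 on log2 for genes higher in 129S1/SvImJ was -0.27 with slide as a fixed block, -0.29 on the slides with every group, -0.31 with array weights, -0.0397 without a minimum fold and -0.36 at 4-fold or more. Its unlogged position turned to -0.0148, -0.0108 and -0.0137 in the first 3 of these. For genes higher in C57BL/6J it was -0.0132 without a minimum fold and 0.33 at 4-fold or more. Over arrays left out the positions ran from 0.0761 to 0.177 (unlogged -0.202 to -0.112) and from -0.24 to -0.117 (unlogged 0.0602 to 0.162).

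Single genes that were not called changed sign. Ppp4r4 was -0.0198 with normexp and loess, -0.0618 with slide as a fixed block and on the slides with every group, -0.274 for (B6x129S1)F1 alone, and -0.0744 to 0.221 over arrays left out, below 0 without A6 (-0.0744) or E1 (-0.013). Gng13 was 0.195 with slide as a fixed block and on the slides with every group, 0.00325 with slide as a random block, 0.0218 for (129S1xB6)F1 alone, and -0.16 to 0.0491 over arrays left out, above 0 without L2, F2, D4, H3 or K2 (0.00103, 0.0403, 0.0491, 0.00213 and 0.0117). Fgg was 0.0535, Apoa2 0.208 and Tyrobp 0.0697 with slide as a fixed block and on the slides with every group. Array H1 is on slide 1 and does not inform these differences. Kcnc1 was -0.145 with the stricter filter, and Lancl3 -1.30 for (B6x129S1)F1 alone. Of 2265 gene values under other settings, 1902 kept sign and call, 335 kept the sign and lost the call, 5 gained one and 23 turned.

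No paired analysis was possible because the array names match no array of 1 group with an array of another; slide, which on slides 2 to 4 holds 1 array of every group, was fitted as a block instead, with its values above.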

Other observations

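Several gene groups of the gonad and of general cell function gave values near those of all genes. Of 37 imprinted genes none was called in limma, 5 were lower and 0 higher at an unadjusted p under 0.05, and the median difference from the mid-parent was -0.063. For 25 genes of the cell cycle the median was 0.0755 and for 75 of the mitochondrial ribosome 0.0054, with 0 called in either list (4 and 3 higher at an unadjusted p under 0.05). Of 301 zinc finger genes 2 were called, Zfp296 and Zfp42, and the median was -0.03. Egln3, a prolyl hydroxylase of the oxygen response, was the only 1 of 18 hypoxia and glycolysis genes called (0.38 ± 0.08, SE, adjusted p = 0.0338), and it was not called with slide as a fixed block (0.41, adjusted p = 0.23).

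Erythroid genes varied between the arrays of 1 cross. The mean of 14 such genes was 1.53 in (129S1xB6)F1 M6, beside -0.74 to 0.42 in the other arrays of that cross and -0.65 to 0.40 in (B6x129S1)F1, and -0.30 to 0.62 in C57BL/6J and -0.54 to 0.31 in 129S1/SvImJ. Their median difference from the mid-parent was 0.03, with 0 called and 0 at an unadjusted p under 0.05.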
